A study of Mus musculus with 11 samples.

Results

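MHC class II genes were read from single cells of mouse cerebral cortex, outside as well as inside the perivascular macrophages (PVMs) in which they are best known. The set was 9 of the 26921 genes in the count tables, chosen by name: H2-Aa, H2-Ab1, H2-Eb1, Cd74, H2-DMa, H2-DMb1, H2-DMb2, H2-Oa and Ciita. All 9 were listed in each of the 11 libraries. The animals were C57BL/6 mice, and myelin was removed from the dissociated cortex before capture. The Juvenile group (4 libraries) was taken at postnatal day 10 and the Adult group (3 libraries) at 7 to 11 weeks, each library from pooled tissue of 6 mice. The Aged group (2 libraries) was taken at 18 months, from 3 pooled mice a library. The EAE group (experimental autoimmune encephalomyelitis, a model of multiple sclerosis; 2 libraries of 3 pooled mice) was taken at the peak of disease. Its mice were 7 to 11 weeks old and female. They had received 150 µl of the myelin peptide MOG35–55 at 0.75 mg/ml in Complete Freund's Adjuvant and, intravenously, 100 µl of pertussis toxin at 2 µg/ml on day 2 and, by the study's methods, also when they were immunized, and the comparison with Adult mice therefore holds the adjuvant and the toxin together with the disease.

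MHC class II molecules present peptides from endocytosed protein to CD4+ T cells. The classical molecule is a pair of an α and a β chain, here H2-Aa with H2-Ab1. H2-Eb1 encodes a second β chain, whose partner H2-Ea is not functional in C57BL/6 mice although H2-Eb1 is still transcribed. Cd74 (the invariant chain) blocks the peptide groove until the molecule reaches the endosome. H2-DMa, with H2-DMb1 or H2-DMb2, encodes the editor that exchanges the remnant of the invariant chain for peptide, and H2-Oa encodes a chain of the inhibitor of that editor. Ciita is the transactivator that switches the genes on, either constitutively in dendritic cells and B cells or after interferon-γ in other cells. Mouse T cells do not make class II molecules and were taken as the reference for free RNA in these libraries. H2-DMb1 and H2-DMb2 are near-identical neighbours, and their separate counts are uncertain.

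The 11 libraries held 54646 barcodes, of which 50625 passed the filters on cells, with 15755504 to 34326349 unique molecular identifiers (UMIs, 1 per captured transcript copy) per library and a median of 2420 to 4199.5 UMIs per cell. Adult 2 and Adult 3 differed by no more than sampling noise in microglia (mean squared z 0.968, where counting error alone gives about 1) and by somewhat more in ECs (1.20). The values in ECs and microglia were 1.03 and 1.06 for Juvenile 1 and 2 and 1.16 and 1.12 for Juvenile 3 and 4. Adult 1 stood apart from the other adult libraries (8.04 to 8.48 in ECs). The aged pair (1.58 and 1.19) and the EAE pair (1.44 and 1.21) were as close in microglia as Adult 2 and 3 were in ECs. They had no further library of their group to compare and were kept as separate samples. No cut on this measure was set. Adult 2 and 3 were counted as 1 sample in every test, and the juvenile pairs as 1 sample each in every mean ± SD, where n is therefore 2 for each group. Between the juvenile pairs the values were 4.99 to 5.67 in ECs and 6.27 to 6.73 in microglia. In the tests the juvenile libraries counted as 4 samples, so the spread behind the p-values includes that within these close pairs. Joining them in the tests was run as an alternative. The labels do not say that the libraries of a group came from separate pools of mice, so p-values measure only the spread between these libraries, which may be technical. Any 2 libraries shared 10 to 113 cell barcodes, the EAE pair the most. Cells were clustered without the 9 genes and were named from markers as endothelial-like (ECs), microglia-like, PVM-like, mural-like, choroid plexus epithelial-like and so on. The short names are used from here on. Levels of single genes are given as counts per 1000000 UMIs of a class in a library (CPM). Each class had its own markers: Cldn5, a tight-junction gene of ECs, stood at 6925 to 8880 CPM in adult and EAE ECs, and P2ry12, a microglial receptor, at 4147 to 4403 CPM in adult microglia. P2ry12 was lower in the microglia of EAE libraries (1237 to 1296 CPM), where Tmem119 (1805 to 1850 CPM) and Sall1 (97.1 to 101.6 CPM) were still present. Free RNA was present in both EAE libraries: Ttr, the leading gene of the choroid plexus, was at 6860 to 7060 CPM in EAE microglia and at 7942 to 8249 CPM in EAE ECs.

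Apart from Cd74 and Ciita (16:10480059-10528418), the members lie in the MHC on chromosome 17 (GRCm38, GENCODE M21). From H2-Oa (17:34092340-34095234) the cluster runs through H2-DMa (17:34119541-34139101), H2-DMb2 (17:34143307-34151555), H2-DMb1 (17:34153072-34160230), H2-Ab1 (17:34257689-34269419) and H2-Aa (17:34282744-34287823, minus strand) to H2-Eb1 (17:34305867-34316674). Class II promoters are known for an X box, bound by the RFX factors, and a Y box, bound by NF-Y, on which Ciita is recruited. Their promoters were read from RefSeq (GRCm38.p6), which gave 7 windows of 250 bases before to 50 after the start for 6 of the 9 members. H2-Ab1, Cd74 and Ciita were not matched. The letters TGATTGG (Y box) and ACNGATG (X box), fixed with these sequences in view, were searched on both strands and did not overlap. The Y letters were in 5 of the 7 windows and the X letters in 5, against 7.82% and 9.85% of all 32851 windows of this length, of which 0.703% held both. The 2 windows of H2-DMa held neither. The stretches of 60 bases around the Y letters are shown 5′ to 3′ on the strand of the gene, with the matches in capitals, to show where the letters lie in each member:
H2-Eb1 (17:34305766-34305825, plus strand): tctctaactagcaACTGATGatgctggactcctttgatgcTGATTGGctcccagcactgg
H2-DMb1 (17:34153088-34153147, plus strand): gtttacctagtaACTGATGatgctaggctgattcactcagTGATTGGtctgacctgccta
H2-DMb2 (17:34145117-34145176, plus strand): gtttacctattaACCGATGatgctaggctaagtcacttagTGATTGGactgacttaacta
H2-Aa (17:34287854-34287913, minus strand): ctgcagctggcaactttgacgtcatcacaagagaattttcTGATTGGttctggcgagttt
H2-Oa (17:34092294-34092353, plus strand): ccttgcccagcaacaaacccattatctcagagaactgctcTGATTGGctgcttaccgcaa

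In H2-Eb1, H2-DMb1 and H2-DMb2 the X letters lay 20 or 21 bases upstream of the Y letters. In H2-Oa they lay 85 bases away, and in H2-Aa 175 bases away on the opposite strand, outside the stretches shown. A match is a description of these letters and not evidence of a site. The X letters are a short string, and their place in H2-Oa and H2-Aa does not show where an X box lies in these genes.

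In EAE the summed level of the 3 classical chains and Cd74 was highest in B cells and in myeloid cells other than neutrophils. EAE microglia lay far above ECs, mural cells and choroid plexus but below macrophage-like cells, PVMs and B cells. In adult cortex the sum was 262 ± 23.1 CPM (SD, n = 2) in microglia, 139.9 ± 0.440 in ECs, 151.2 ± 34.4 in mural cells, 197.1 ± 2.98 in choroid plexus and 155.5 ± 9.49 in T cells, against 1604 ± 698 in PVMs. ECs and mural cells of adult mice thus lay beside the T cell class, and choroid plexus and microglia only a little above it. Of the 99 adult T cells, 34 lay in a cluster led by Gata3 and Csf2, described below, and the adult level without them is not given here. The PVM class leaves out an unnamed group led by Cxcl13 and Mgl2, whose levels were higher (H2-Aa at 11558 against 217 CPM over the adult libraries). In EAE the highest sum (76106 CPM, mean of 2 libraries) was in an unnamed group of cells led by Ccl17 and Cd209a. Macrophage-like cells (51909), PVMs (41350), a further unnamed group led by Cst7 and Cxcl9 (36824), B cells (31152), DC-like cells (29282) and microglia (25633) followed. The DC-like cells (24638 and 33926) overlapped with B cells (28272 and 34032) and with microglia (25548 and 25719), while both B cell libraries were above both of microglia. After microglia the sum fell to 4904 CPM in neurons, 2280 in astrocytes, 2278 in mural cells, 2000 in neutrophils and 1830 in ependymal cells. Fibroblasts (1317), natural killer cells (1129.5), ECs (1122), T cells (976.3) and choroid plexus (833.7) followed. In this stretch the libraries of neighbouring classes overlapped in most cases. Adult fibroblasts were few (62 cells) and not tested. Over the adult libraries they held 218 CPM of H2-Aa and 345.9 of Cd74, against 28.8 and 50.5 in ECs and 33.3 and 150.4 in microglia.

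**Figure D1:**
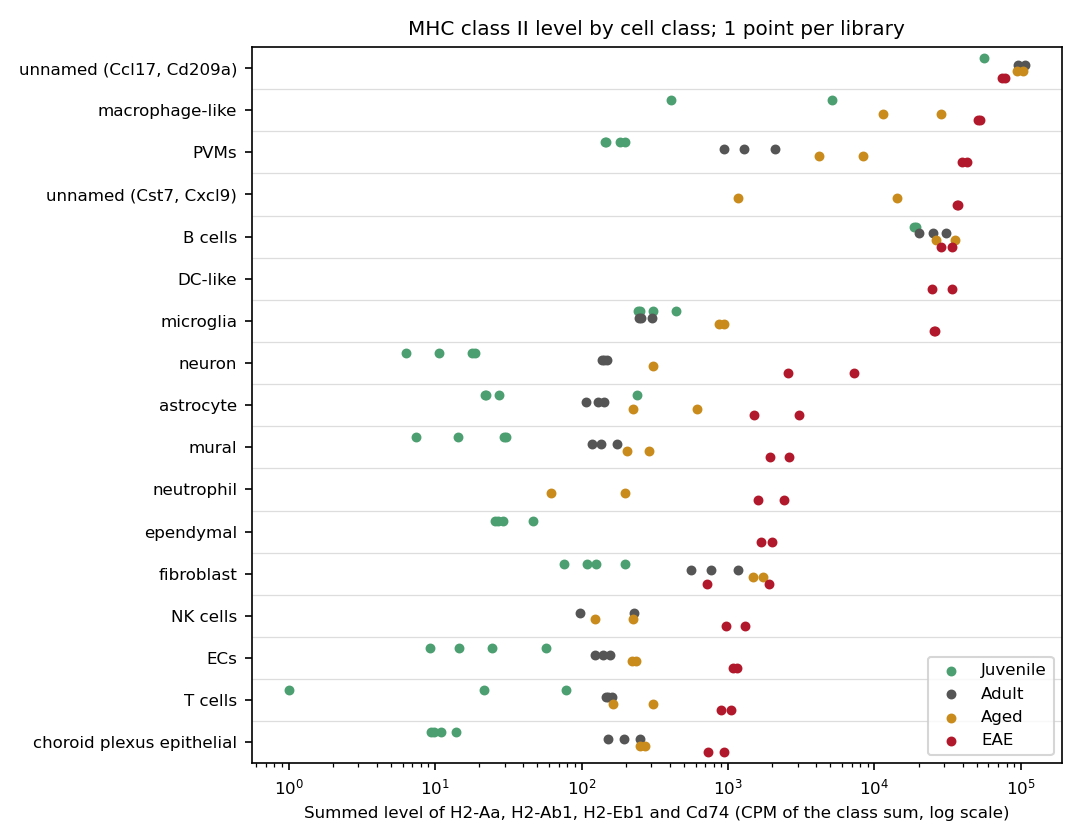
Summed level of H2-Aa, H2-Ab1, H2-Eb1 and Cd74 (CPM, logarithmic axis, with a level of 0 drawn at 1) in each cell class, 1 point per library and 1 colour per condition. In EAE the microglia of both libraries lie at 25548 and 25719 CPM, beside DC-like cells. ECs and choroid plexus lie at 732 to 1155 CPM, where T cells (902 and 1050 CPM) also lie. Mural cells lie higher, at 1946 and 2609 CPM.

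Microglia in EAE had higher levels of all 9 members. H2-Aa was at 33.8, 33.5 and 32.3 CPM in the adult libraries and at 3433 and 3519 CPM in the EAE libraries. H2-Ab1 was at 48.7, 55.3 and 54.2 CPM against 4146 and 4173 CPM. H2-Eb1 was at 32.2, 25.1 and 17.6 CPM against 2861 and 2880 CPM. The 3 classical chains therefore rose to a like extent, by 6.89 ± 0.26, 6.52 ± 0.22 and 6.94 ± 0.36 on the log2 scale (± SE; adjusted p = 5.258e-10, 9.678e-11 and 2.764e-07 in edgeR's quasi-likelihood test). Cd74 was at 131.1, 191.0 and 151.0 CPM in adult microglia and at 15108 and 15147 CPM in EAE (6.84 ± 0.33, adjusted p = 1.052e-07). The fold changes of the editors and their inhibitor were smaller. H2-DMa went from 234.6–296.1 to 938.8–963.9 CPM (2.07 ± 0.36, adjusted p = 0.00326), H2-DMb1 from 142.4–152.4 to 424.3–428.5 CPM (1.73 ± 0.14, adjusted p = 5.393e-07) and H2-DMb2 from 7.06–11.7 to 37.6–39.7 CPM (2.28 ± 0.32, adjusted p = 0.000131). H2-Oa went from 38.1–40.2 to 92.2–98.4 CPM (1.49 ± 0.16, adjusted p = 1.092e-05). Ciita, the transactivator, had no UMI in the 3 adult libraries and 52 and 72 UMIs in the EAE libraries, so that it was at least 11.7-fold higher, against a floor of 3 UMIs over the adult group (adjusted p = 0.000476). Higher calls made up 13.2% of the 11261 genes tested. With Ciita at its bound the members' median was 3.54 on the log2 scale, against −0.01 over all genes tested. That median is Ciita's own bound, and the other members lay at 1.49 to 2.28 or at 6.52 to 6.94. Different clusters held most microglia of these groups: 2517 EAE cells lay in a cluster led by Niacr1 and Ccl4, with none of the microglial markers among its 10 leading genes, and most adult cells lay in other clusters.

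Markers of infiltrating and perivascular cells were read beside this result. The summed level of a list of 16 such genes was 93.8 to 155.4 CPM in adult and 451.0 and 463.5 CPM in EAE microglia, where Plac8 (146.4 to 177.7 CPM) made the largest part of the genes read singly. Ly6c2, a monocyte gene, was at 31.2 and 33.0 CPM in EAE microglia and at 2767 to 2890 CPM in the macrophage-like cells. Ccr2 was at 3.90 to 7.26 CPM, and Cd79a, which marks B cells, was at 0. The PVM receptor Mrc1 was lower in EAE microglia (5.27 to 8.96 CPM) than in adult microglia (18.4 to 47.1 CPM). Of EAE microglia, 93.9% and 95.6% of cells in the 2 libraries had at least 10 class II UMIs, so the level was not carried by a few cells. The part of infiltrating cells in the result was not tested.

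With age, the classical chains and Cd74 rose in microglia and the other members did not pass the test. H2-Aa was at 162.4 and 127.4 CPM in aged microglia (2.15 ± 0.24 above adult on the log2 scale, adjusted p = 0.000403 in edgeR). H2-Ab1 was at 165.5 and 177.4 CPM (1.76 ± 0.20, adjusted p = 0.000337), H2-Eb1 at 121.0 and 81.7 CPM (1.95 ± 0.35, adjusted p = 0.0213) and Cd74 at 482.9 and 483.4 CPM (1.71 ± 0.27, adjusted p = 0.0133). H2-DMb1 (0.44 ± 0.14, adjusted p = 0.133 in edgeR) and H2-DMa (0.52 ± 0.35, adjusted p = 0.52) missed the threshold. The 4 calls of 9 stand beside 1.26% of all genes tested that were called higher. They became 2 when Adult 1, Aged 1 or Aged 2 was left out. The list of infiltrating and perivascular genes was at 306.3 and 315.8 CPM in aged microglia, of which S100a8, a neutrophil gene, made 112.4 to 127.4 CPM. Its part in the difference was not tested.

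Juvenile microglia had lower levels of the classical chains and higher levels of Cd74. H2-Aa was at 1.74, 2.08, 1.45 and 5.17 CPM, lower than in adult microglia by −3.78 ± 0.31 on the log2 scale (adjusted p = 1.400e-06 in edgeR). H2-Eb1 was at 0.724 to 4.74 CPM (−3.62 ± 0.45, adjusted p = 0.000229) and H2-Ab1 at 10.4 to 17.3 CPM (−2.02 ± 0.20, adjusted p = 4.776e-06). Cd74 was at 229.8, 234.3, 290.3 and 415.2 CPM, above all 3 adult libraries (0.92 ± 0.24, adjusted p = 0.0179 in edgeR). The invariant chain and the classical chains thus differed from adult microglia in opposite directions. H2-DMb1 (68.7 to 85.8 CPM) and H2-Oa (15.95 to 20.2 CPM) were also lower, by −0.997 ± 0.12 and −1.13 ± 0.17 on the log2 scale. Calls made up 24.1% of all genes tested in this comparison, against 6 of 9 members. The list of infiltrating and perivascular genes was at 237.8 to 377.6 CPM in juvenile microglia, with Mrc1 at 104.2 to 194.2 CPM. Whether PVM transcripts had a part in the Cd74 difference was not tested.

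Other genes of antigen processing and of the interferon pathway, 31 in a list, were read beside the members. In microglia 11 of the 28 tested rose and 1 fell, where 13.2% of all 11261 genes rose and 1398 genes fell. Among them were Nlrc5, the transactivator of MHC class I genes (4.67 ± 0.72 on the log2 scale, adjusted p = 0.000349 in edgeR), the co-stimulator Cd40 (1.87 ± 0.60), the endosomal reductase Ifi30 (1.74 ± 0.30), Irf1 (1.42 ± 0.14) and Ctss, the protease that trims the invariant chain (1.26 ± 0.31). In ECs 10 of 28 rose and 2 fell, where 16% of all 13751 genes rose and 1708 genes fell. Nlrc5 (2.74 ± 0.26), Irf8 (1.77 ± 0.32), Ctss (1.46 ± 0.37), Irf1 (1.04 ± 0.31) and Ifi30 (0.99 ± 0.31) were higher in EAE ECs, and Cd40 was lower (−1.52 ± 0.20, adjusted p = 0.000261 in edgeR). The part of free RNA from leukocytes in these EC differences was not tested. The list's median was 0.39 in microglia and 0.33 in ECs on the log2 scale. In aged microglia none of the 28 was called in edgeR or in DESeq2, and 5 had an unadjusted p under 0.05.

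ECs line the vessels and, in EAE, are the barrier that leukocytes cross. In the ECs of EAE libraries 7 of the 8 members tested were higher than in adult ECs, at levels far below those of microglia. Most EAE ECs lay in clusters led by Xdh (4228 cells) and Ctla2a (1842 cells), and most adult ECs in other clusters, the largest of them led by Hmcn1 (2678 cells). A further 779 adult ECs lay in a cluster with no EC marker among its 10 leading genes and 9.81% called doublets. At the other resolution a cluster with as many adult cells was named red blood cell. H2-Aa was at 32.4, 30.0 and 25.9 CPM in adult ECs and at 198.5 and 203.0 CPM in EAE (2.95 ± 0.49 on the log2 scale, adjusted p = 0.00418 in edgeR). H2-Ab1 was at 40.1, 44.0 and 28.4 against 211.5 and 221.9 CPM (2.71 ± 0.24, adjusted p = 4.174e-05), and H2-Eb1 at 22.4, 27.4 and 20.1 against 150.0 and 160.5 CPM (2.93 ± 0.36, adjusted p = 0.000663). Cd74 was at 45.3, 55.1 and 48.4 against 528.7 and 569.7 CPM (3.68 ± 0.62, adjusted p = 0.0052). Of the editors and the inhibitor, H2-DMa (2.42 ± 0.28, adjusted p = 7.654e-05), H2-DMb1 (2.33 ± 0.35, adjusted p = 0.000577) and H2-Oa (2.79 ± 0.59, adjusted p = 0.00445) rose, while H2-DMb2 (0.67 ± 0.54, adjusted p = 0.381 in edgeR) did not pass. Higher calls made up 16% of the 13751 genes tested. Ciita was too low for the test, with 2 UMIs over the adult and 14 over the EAE ECs (ratio 5.93, 95% interval 1.36 to 53.7, counting error only). Both adult UMIs came from Adult 1, without which no ratio can be given, and the ratio was 3.42 without EAE 1, 8.38 without EAE 2, 3.54 without Adult 2 and 3.53 without Adult 3. T cells of the EAE libraries, the reference for free RNA, held 14 Ciita UMIs in 1528 cells. Over the group this was 2.39 CPM, against 0.631 CPM in EAE ECs.

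The EAE effect was larger in microglia than in ECs for the 4 genes that make up the sum. The difference of the 2 effects, tested as an interaction, was 3.98 ± 0.21 on the log2 scale for H2-Aa (adjusted p = 5.610e-05 in edgeR), 3.84 ± 0.20 for H2-Ab1, 4.04 ± 0.26 for H2-Eb1 and 3.19 ± 0.25 for Cd74. These were 4 of 9 members called higher, beside 2.48% of all genes tested.

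The level in ECs of EAE libraries was close to that of T cells in the same libraries, the class that should lack these genes. ECs held 3.32 and 3.57 class II UMIs per cell in EAE 1 and EAE 2 (H2-Aa, H2-Ab1, H2-Eb1 and Cd74 together) at a median depth of 2332 and 2399 UMIs. T cells held 3.44 and 4.05 class II UMIs at a median depth of 3202 and 3198 UMIs. The median cell held 2 class II UMIs in each of these classes. Of ECs, 4.98% (95% Wilson interval 4.32 to 5.73%) and 5.10% (4.42 to 5.87%) had 10 or more class II UMIs. Of T cells, 4.89% (3.60 to 6.62%) and 4.65% (3.35 to 6.43%) did. These shares did not differ beyond counting error, but they compare ECs with deeper T cells. With each cell thinned to 1500 UMIs, at least 1 class II UMI was found in 69.9% and 69.4% of ECs and in 65.2% and 65.7% of T cells (13.2% and 12.8% of ECs and 3.39% and 3.56% of T cells were too shallow and left out; the shares before thinning were 85.3% and 84.5% of ECs and 90.3% and 88.4% of T cells). In adult libraries ECs held 0.520 and T cells 0.576 class II UMIs per cell. At equal depth, and in CPM (1089 and 1155 in ECs against 902.2 and 1050 in T cells), ECs thus lay a little above T cells in both libraries, while the share with 10 or more at equal depth (1.44% and 1.84% of ECs, 1.17% and 2.13% of T cells) overlapped. Among other leukocytes not known as class II producers in mice, natural killer cells (962.5 to 1297 CPM) spanned the level of ECs. Neutrophils (1600 to 2401 CPM) lay above it. The T cell class held a cluster led by Gata3 and Csf2 with 1 T cell marker among its 10 leading genes, which made up 34 of 99 adult and 96 of 1528 EAE T cells. Without it, an alternative chosen after seeing the data, the EAE T cells held 3.385 and 4.03 class II UMIs per cell (868.4 and 1025 CPM), and 64.95% and 65.6% had at least 1 after thinning. A rise from adult to EAE was present in T cells as well, and the part of free RNA in that of ECs was not tested.

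Leukocyte transcripts were read beside the class II transcripts in non-leukocytes. A list of 10 leukocyte genes (Tyrobp, Fcer1g, Laptm5, Ptprc, Coro1a, Cd52, Lcp1, Cd53, Rac2 and Lyz2) was at 577.0, 299.7 and 284.6 CPM in adult ECs and at 616.5 and 611.5 CPM in EAE ECs, so that Adult 1 came close to the EAE libraries. Taken over each EAE library, the ratio of class II to leukocyte UMIs gave the class II UMIs expected in a class from its leukocyte UMIs. In ECs the observed class II UMIs were 0.992 and 1.06 times that number. They were 0.7996 and 0.880 in choroid plexus, 0.689 and 1.36 in mural cells and 0.915 and 1.21 in astrocytes, against 1.35 and 1.34 in microglia. Macrophage-like cells (0.994 and 1.0015) and PVMs (0.820 and 0.728), which carry high class II levels, were no higher than ECs, ependymal cells were at 1.59 and 1.89, neurons at 3.23 and 0.774, and T cells, which hold leukocyte RNA of their own, at 0.0551 and 0.0652. The ratio therefore does not separate a class's own class II transcripts from free RNA or from other cells. Among EAE ECs with at most 1 leukocyte UMI (3847 cells) there were 2.09 class II UMIs per cell and 1.09% of cells had 10 or more, whereas such ECs of adult libraries held 0.410 per cell. When cells with 2 or more leukocyte UMIs were left out of the sums, H2-Aa (2.71), H2-Ab1 (2.57), H2-Eb1 (2.66), Cd74 (3.19), H2-DMa (2.82) and H2-DMb1 (2.35 on the log2 scale) were still called higher in EAE ECs. That filter left out 46.7% of EAE and 31.3% of adult ECs.

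**Figure D2:**
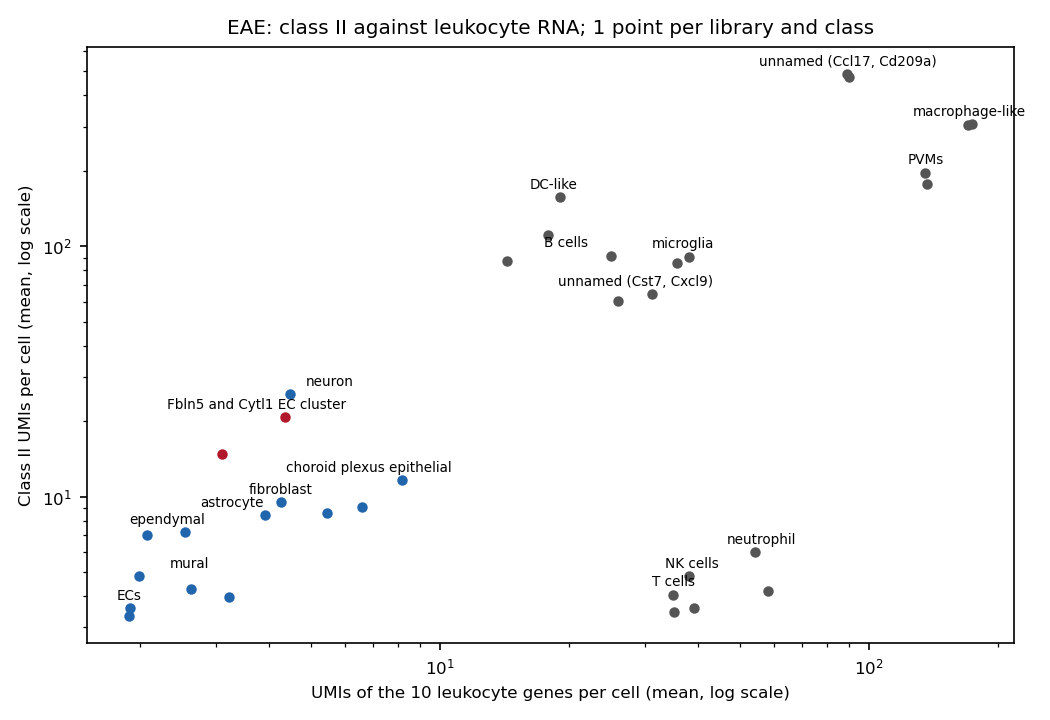
Class II UMIs per cell against UMIs per cell of 10 leukocyte genes in each cell class of EAE 1 and EAE 2, both axes logarithmic. ECs, with 3.32 and 3.57 class II UMIs per cell, lie beside T cells (3.44 and 4.05) on the vertical axis, and microglia lie at 85.7 and 90.9.

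In EAE, 1 small group of ECs had a higher class II level than the other ECs. A cluster of 973 ECs led by Fbln5 and Cytl1, genes of large arteries, was singled out after its values were seen and is described without a test. Its class II level was 0.0629 UMIs per cell in juvenile (445 cells), 0.523 in adult (235 cells), 0.867 in aged (180 cells) and 18.1 in EAE libraries (113 cells; 14.8 in EAE 1 and 20.8 in EAE 2). The other ECs held 0.212 in juvenile, 0.5203 in adult, 0.6201 in aged and 3.21 in EAE libraries. Per cell the cluster was thus lower than they were in juvenile and close to them in adult libraries. Juvenile 2 (0.657) raised the juvenile value of the other ECs, which was 0.0915 to 0.179 in the remaining juvenile libraries. The cluster held 0.0467 to 0.0824 in the juvenile libraries. At equal depth the juvenile shares with at least 1 class II UMI were close, at 1.71% of other ECs and 1.81% of the cluster. Of the EAE cells of the cluster 40% (27.6 to 53.8%, 50 cells) and 41.3% (30.0 to 53.6%, 63 cells) had 10 or more class II UMIs. No cell reached that in the other conditions, which allows a share of up to 0.674% in juvenile, 1.28% in adult and 1.67% in aged cells. The median EAE cell of the cluster held 8 and 6 class II UMIs in the 2 libraries, at a depth of 4120 and 3609 UMIs, so that a part of the cells carried most of the signal. Cd74 was at 2007 and 2937 CPM and H2-Aa at 493.0 and 699.3 CPM in these EAE cells, H2-DMa at 73.5 and 64.6 CPM and H2-DMb1 at 99.5 and 104.0 CPM. H2-Oa and Ciita had no UMI there. The leukocyte list was at 2.05 UMIs per cell in adult and at 3.10 and 4.37 in EAE cells of the cluster. Its genes differed, and only some of them are given here: Laptm5 went from 150.6 to 207.8 CPM, but Rac2 from 8.26 to 43.1, Cd52 from 17.45 to 82.3, Coro1a from 8.26 to 31.4 and Lyz2 from 76.2 to 227.4 CPM. The genes of the list left out here are Tyrobp, Fcer1g, Ptprc, Lcp1 and Cd53. Among its 35 EAE cells with at most 1 leukocyte UMI there were 10.0 class II UMIs per cell and 31.4% of cells had 10 or more, and the doublet caller marked none of its EAE cells. The part of leukocyte RNA in the level was not tested.

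**Figure D3:**
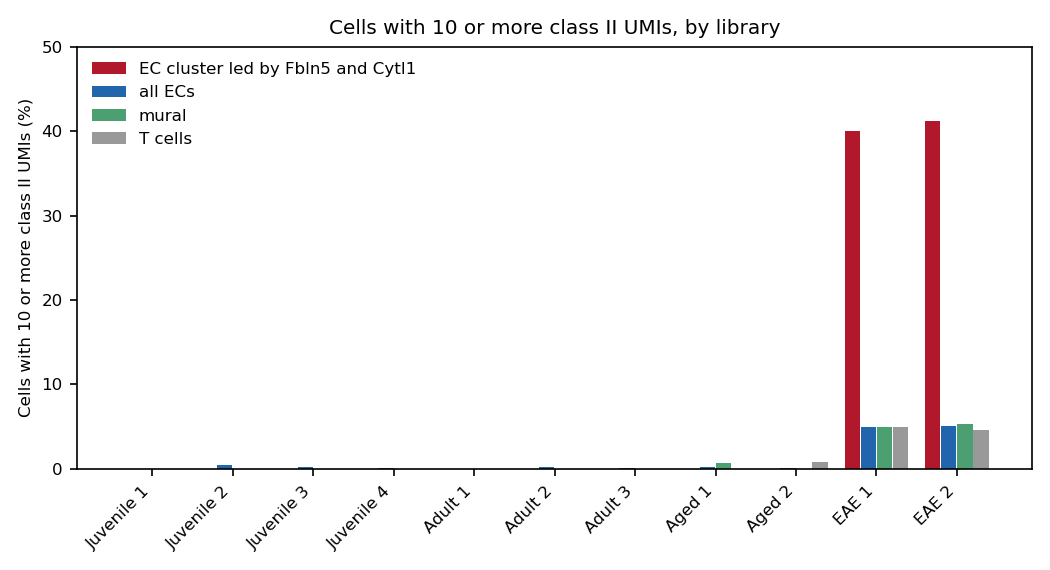
Percentage of cells with 10 or more class II UMIs in each library (bars start at 0), for the EC cluster led by Fbln5 and Cytl1, all ECs, mural cells and T cells. In EAE the cluster reaches 40% and 41.3%, while all ECs stand at 4.98% and 5.10% beside T cells at 4.89% and 4.65%.

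When only the ECs of the EAE libraries were clustered, 3 of the 13 subclusters held more class II UMIs than the rest. A large arterial subcluster (104 cells, 8 of 8 arterial markers), led like the cluster above by Cytl1 and Fbln5, held 18.8 class II UMIs per cell. A venous subcluster led by Darc and Lcn2 (307 cells) held 10.5 and one led by the interferon-induced chemokines Cxcl10 and Cxcl9 (73 cells) held 8.32, while the other subclusters held 1.70 to 4.65. The venous one was also the deepest of the 13, at a median of 6534 UMIs. In cells with at most 1 leukocyte UMI the values were 10.8, 2.91 and 4.31 UMIs per cell, against 1.35 to 3.13 in the others, among which the venous one no longer stood out. Taken as whole classes, venous-like ECs were compared with arterial-like ECs, with the library as a block. Arterial-like ECs had the higher levels of H2-Aa (242.4 and 290.8 against 185.5 and 217.1 CPM; −0.35 ± 0.08 on the log2 scale for venous against arterial, adjusted p = 4.599e-05 in edgeR), H2-Ab1 (−0.43 ± 0.08, adjusted p = 2.999e-07) and H2-DMb1 (−0.60 ± 0.21, adjusted p = 0.0158). These were 3 of 6 members called lower, beside 15.4% of all genes tested. The arterial-like class pools the 104 cells above with 730 cells that held 3.75 class II UMIs per cell. Without the 104 cells, an alternative chosen after seeing the data, no member was called in edgeR: H2-Aa was at 0.10 (adjusted p = 0.424), H2-Ab1 at −0.15 (adjusted p = 0.163) and H2-DMb1 at 0.02 (adjusted p = 0.963) on the log2 scale. At the other clustering resolution 1 member was called. Per cell the order was the other way, with 6.54 and 8.19 class II UMIs in venous-like and 4.90 and 6.395 in arterial-like ECs, whose median depths were 6073 and 5858 against 2962 and 2958 UMIs.

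In aged ECs none of the 8 members tested passed the threshold, although the sum was higher. The sum was 228.2 ± 9.42 CPM (SD, n = 2) in aged and 139.9 ± 0.440 in adult ECs. None was called in edgeR or DESeq2, and 2 had an unadjusted p under 0.05, while 5.56% of all genes tested were called. Other settings of edgeR called 4 without the filter, 4 with naming by marker score and 2 with juvenile pairs joined. Juvenile ECs had lower levels of 7 of the 8 members, beside 22.4% of all genes called lower. H2-Ab1 was at 1.78, 7.10, 3.71 and 2.68 CPM (−3.25 ± 0.27 on the log2 scale) and H2-Aa at 1.78, 12.2, 4.12 and 1.58 CPM (−2.57 ± 0.52). Cd74 was at 2.18, 25.6, 11.9 and 7.11 CPM, so that Juvenile 2 had the highest level of each of these 3 genes. T cells of juvenile libraries were also lower in the sum, at 59.4 ± 14.97 CPM against 155.5 ± 9.49 in adult libraries, and 15 of their 18 class II UMIs lay in the cluster led by Gata3 and Csf2. Without Adult 1 there were 4 calls in place of 7.

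Mural cells, the pericytes and smooth muscle cells of the vessel wall, had 5 members high enough to test, and all 5 rose in EAE. H2-Aa was at 41.8, 14.1 and 31.7 CPM in adult mural cells and at 310.2 and 426.6 CPM in EAE (3.45 ± 0.30 on the log2 scale, adjusted p = 1.333e-05 in edgeR). H2-Ab1 (3.32 ± 0.43, adjusted p = 0.00157) and H2-Eb1 (3.78 ± 0.48, adjusted p = 0.0012) rose to a like extent, to 310.2 and 604.7 CPM and to 233.7 and 451.5 CPM. Cd74 was at 54.3, 42.3 and 49.8 CPM against 1092 and 1127 CPM (4.43 ± 0.38, adjusted p = 6.175e-05). H2-DMa rested on 3 UMIs over the adult and 41 over the EAE libraries (ratio 25.5, 95% interval 8.12 to 128.5), and Ciita had none in either. Higher calls made up 2.29% of the 6198 genes tested. The leukocyte list was at 775.2, 329.0 and 212.7 CPM in adult and 1587 and 1081 CPM in EAE mural cells. The share of mural cells with 10 or more class II UMIs, 4.92% (2.27 to 10.3%) and 5.34% (2.61 to 10.6%), was within the interval of T cells, although mural cells were shallower (median 1314.5 and 1399 UMIs). In CPM the summed level was higher in mural cells (1946 and 2609) than in T cells (902.2 and 1050) of the EAE libraries. Thinned to 1500 UMIs, 72.7% and 75.4% of mural cells had at least 1, but 54.9% and 56.5% of them were too shallow to enter. With cells of 2 or more leukocyte UMIs left out (40.3% of EAE and 22.2% of adult mural cells), 4 members were called, by 2.26 to 3.10 on the log2 scale.

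Aged mural cells showed no call among the 5 members in edgeR or DESeq2, and none had an unadjusted p under 0.05, while 0.0323% of all genes tested were called. In juvenile mural cells H2-Aa (0 to 2.94 CPM, −4.02 on the log2 scale), H2-Ab1 (−3.24) and Cd74 (0 to 11.5 CPM, −3.02) were lower, which is 3 of 5 members beside 14.1% of all genes. H2-Eb1 (−1.03, adjusted p = 0.234 in edgeR) did not pass.

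Choroid plexus epithelium, which secretes cerebrospinal fluid, had higher levels of the classical chains, Cd74 and H2-DMa in EAE, with smaller fold changes than in ECs or mural cells (the difference between these classes was not tested). H2-Aa was at 40.01, 47.9 and 37.8 CPM in adult and 168.1 and 154.9 CPM in EAE libraries (1.86 ± 0.13 on the log2 scale, adjusted p = 5.611e-09 in edgeR). H2-Ab1 (1.63 ± 0.13, adjusted p = 2.819e-08), H2-Eb1 (1.94 ± 0.14, adjusted p = 9.054e-09), Cd74 (69.95, 99.9 and 48.8 against 435.5 and 303.1 CPM; 2.26 ± 0.20, adjusted p = 8.605e-06) and H2-DMa (1.10 ± 0.22, adjusted p = 0.000945) rose, 5 of 7 members beside 16.8% of all genes called higher. H2-DMb1 was at 31.6, 21.0 and 24.6 CPM in adult and 35.1 and 32.2 CPM in EAE (0.21 ± 0.16, adjusted p = 0.339 in edgeR). Ciita had 3 UMIs over each group. The cells are large, with a median of 11538 and 10112 UMIs in EAE, and 32.7% and 24.0% held 10 or more class II UMIs. Thinned to 1500 UMIs, 62.6% and 60.3% held at least 1, below T cells (65.2% and 65.7%). At equal depth this share was thus no higher than in T cells. Per cell the order was the other way, with 10.1 class II UMIs in choroid plexus and 3.75 in T cells (means of the EAE libraries). Thinning takes most UMIs from cells of this depth, so the share cannot tell free RNA from the cells' own transcripts. With cells of 2 or more leukocyte UMIs left out, H2-Aa (1.86), H2-Ab1 (1.80), H2-Eb1 (2.11), Cd74 (2.17) and H2-DMa (2.01 on the log2 scale) were still called, and the part of free RNA was not tested. That filter left out most of the class, 80.6% of EAE and 60.3% of adult choroid plexus cells.

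With age, H2-DMb1 alone was called in choroid plexus (41.3 and 46.2 CPM; 0.71 ± 0.17 on the log2 scale, adjusted p = 0.0296 in edgeR), 1 of 7 members beside 0.703% of all genes. DESeq2 made no call, nor did edgeR without Aged 1 or Aged 2. In juvenile choroid plexus all 7 members tested were lower, from −1.30 (H2-DMb1, 8.90 to 16.2 CPM) to −5.02 (H2-Ab1) on the log2 scale, beside 29.7% of all genes. H2-DMb1 thus had the smallest change from adult levels in EAE and in juvenile choroid plexus, and was the one member called in aged at the main settings. Differences between members were not tested.

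PVMs, scavenger macrophages of the perivascular space, were the reference for these classes, and their values depended on where the class was cut. In the PVM-like cells 6 members could be tested and all 6 rose in EAE, beside 11.6% of all genes called higher. Here too the clusters differed, with 435 adult cells in a cluster led by Ccl7 and 372 EAE cells in one led by Ccl8. H2-Aa was at 304.1, 150.0 and 164.1 CPM in adult and 8053 and 7348 CPM in EAE libraries (5.24 ± 0.48 on the log2 scale), and Cd74 at 1232, 549.5 and 799.7 against 21532 and 20046 CPM (4.61 ± 0.43). H2-DMa (3.87 ± 0.24) and H2-DMb1 (2.74 ± 0.19) rose as well, and Ciita, without a UMI in adult PVMs, had 22 and 17 UMIs in EAE (at least 13.4-fold higher). An unnamed group led by Cxcl13 and Mgl2 had the class II level of antigen-presenting cells already in adult cortex (41551 to 90548 CPM for the sum) and was found in adult (58 cells), aged (179 cells) and EAE libraries (14 cells). The low number in EAE depended on the resolution. At the other one a cluster led by the same genes held 71 adult, 177 aged and 127 EAE cells. With these cells counted as PVMs, an alternative chosen after seeing the data, the EAE differences became 2.38 for H2-Aa (adjusted p = 0.0742 in edgeR), 2.17 for H2-Ab1, 2.25 for H2-Eb1 (adjusted p = 0.0682), 1.97 for Cd74, 2.32 for H2-DMa and 1.69 for H2-DMb1 on the log2 scale with H2-Aa and H2-Eb1 no longer called. In aged PVMs H2-DMa (2.13 ± 0.25, adjusted p = 8.916e-05 in edgeR) and H2-DMb1 (1.28 ± 0.20, adjusted p = 0.000535) were called, 2 of 6 members beside 0.976% of all genes. The classical chains and Cd74 had differences of like size that missed the threshold: H2-Aa 2.29 ± 0.44 (adjusted p = 0.0599 in edgeR), H2-Ab1 2.05 ± 0.47, H2-Eb1 2.187 ± 0.50 and Cd74 1.85 ± 0.38 (adjusted p = 0.074). DESeq2 called all 6, as did edgeR without Aged 2, and there were 4 calls without Adult 1. Cd74 was called with the cells led by Cxcl13 and Mgl2 counted (1.96, adjusted p = 0.00331 in edgeR). In juvenile PVMs all 6 were lower, beside 5.84% of all genes, with 1 UMI of H2-Aa against 420 in adult PVMs (ratio 0.0026, 95% interval 6.575e-05 to 0.0146).

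The EAE effect in PVMs differed from that in microglia for 3 of 9 members, beside 1.66% of all genes. It was smaller in PVMs for Cd74 (−2.17 ± 0.35 on the log2 scale, adjusted p = 0.0222 in edgeR) and larger for H2-DMa (1.86 ± 0.36, adjusted p = 0.0347) and H2-DMb1 (1.07 ± 0.19, adjusted p = 0.0169). None of the members was called when either EAE library was left out, and 6 were called without Adult 1 and 5 without Adult 2. With the cells led by Cxcl13 and Mgl2 counted as PVMs, the effect was smaller in PVMs for H2-Aa (−4.46), H2-Ab1 (−4.30), H2-Eb1 (−4.63) and Cd74 (−4.82 on the log2 scale), while H2-DMa (0.30, adjusted p = 0.615 in edgeR) and H2-DMb1 (0.02, adjusted p = 0.987) were no longer called. Of those added cells 58 were adult and 14 were EAE cells.

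Astrocytes were few, and 1 of 6 members was called in EAE, beside 1.42% of all genes called higher. It was H2-DMa, with 3 UMIs over the adult and 21 over the EAE libraries (4.08 ± 0.84 on the log2 scale, adjusted p = 0.00647 in edgeR; ratio 17.8, 95% interval 5.31 to 93.2), and it was not called without EAE 1, while 4 members were called without Juvenile 3. Cd74 was at 38.9, 28.9 and 15.5 CPM in adult and 602.4 and 1687 CPM in EAE astrocytes, where the libraries differed more than in microglia, ECs or mural cells. No member was called in aged or juvenile astrocytes in edgeR or DESeq2, and none had an unadjusted p under 0.05, beside 0.51% and 12.5% of all genes called. Without Juvenile 3 there were 3 calls in juvenile astrocytes.

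Infiltrating cells were present mostly in EAE (830 and 766 macrophage-like cells, 35 and 42 DC-like cells) and the order of their levels depended on which cells were named DC-like. The DC-like class held the 77 cells led by Ccl22 and Ccr7, without the 249 EAE cells led by Ccl17 and Cd209a that stayed unnamed. The macrophage-like class held 362 EAE cells of a cluster led by H2-Eb1 and H2-Aa themselves, with 1 macrophage marker among its 10 leading genes. Macrophage-like cells had more of the classical chains than DC-like cells: H2-Aa was at 10649 and 10366 CPM in macrophage-like and at 9108 and 6942 CPM in DC-like cells, and H2-Ab1 at 8614 and 8466 against 3333 and 2077 CPM. The editors H2-DMa (1157 and 1092 against 389.5 and 237.2 CPM) and H2-DMb1 (618.5 and 614.3 against 55.7 and 58.0 CPM) showed the same order. H2-DMb2 and the inhibitor H2-Oa were the other way round, at 222.6 and 152.9 CPM and at 61.8 and 36.9 CPM in DC-like cells against 27.9 and 24.8 CPM and 9.29 and 7.91 CPM in macrophage-like cells. In a fit with the library as a block, H2-DMb2 (2.71 ± 0.26 on the log2 scale, adjusted p = 7.754e-24 in edgeR) and H2-Oa (2.38 ± 0.49, adjusted p = 7.991e-06) were higher in DC-like cells. H2-DMb1 (−3.54 ± 0.22), H2-DMa (−1.97 ± 0.13), H2-Ab1 (−1.78 ± 0.10), Cd74 (−1.15 ± 0.10), H2-Aa (−0.50 ± 0.09) and H2-Eb1 (−0.34 ± 0.10) were lower, where the median over all genes was −0.25. Together 8 of 9 members were called, beside 30.4% of all genes. With the cells led by Ccl17 and Cd209a counted as DC-like, an alternative chosen after seeing the data, all 9 members were higher in DC-like cells. H2-DMb2 (3.94) and H2-Oa (3.71 on the log2 scale) kept their direction, while H2-DMb1 (0.47), H2-DMa (0.61), H2-Ab1 (0.30), Cd74 (0.26, adjusted p = 0.0282 in edgeR), H2-Aa (0.55) and H2-Eb1 (0.52) turned. B cells of the EAE libraries had more H2-DMb2 (898.9 and 677.4 CPM) and H2-Oa (242.0 and 202.0 CPM) than DC-like cells, macrophage-like cells or microglia. The split between H2-DMb1 and H2-DMb2 rests on how reads of the near-identical genes were assigned.

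Microglia of the EAE libraries lay below the infiltrating macrophages in the classical chains, Cd74, H2-DMa and H2-DMb1, and above them in H2-Oa. Macrophage-like cells had more H2-Aa (1.95 ± 0.09 on the log2 scale), H2-Eb1 (1.63), H2-Ab1 (1.39), Cd74 (1.13), H2-DMb1 (0.89) and H2-DMa (0.60) than microglia of the same libraries. H2-Oa was lower in macrophage-like cells (−3.10 ± 0.14, adjusted p = 4.468e-100 in edgeR), and H2-DMb2 (−0.20) was not called. These were 7 of 9 members called, beside 69.6% of all genes, so that most genes differed between these classes. PVMs were below macrophage-like cells in 7 of 9 members, beside 25.8% of all genes called lower, from −0.38 (H2-Ab1) to −1.65 (H2-DMb2).

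**Figure D4:**
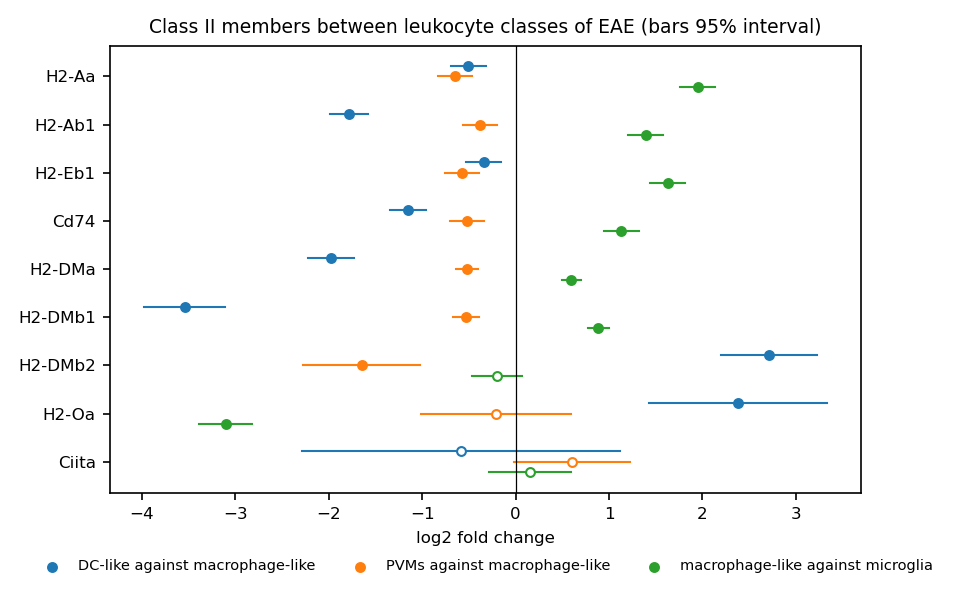
Log2 fold change of the members between cell classes of the 2 EAE libraries, with 95% intervals; filled symbols passed an adjusted p of 0.05 in edgeR with the library as a block. H2-DMb2 (2.71) and H2-Oa (2.38) lie above 0 in DC-like against macrophage-like cells, while H2-DMb1 (−3.54) and H2-DMa (−1.97) lie below, but above 0 (0.47 and 0.61) with the unnamed cells led by Ccl17 and Cd209a counted as DC-like.

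The genes whose levels were most like those of the classical chains across cell types were read in the EAE libraries, over 33 sums of 17 cell classes, as Pearson's r of log2(CPM + 1) with the mean of the 3 chains. Of 13138 genes compared (20 CPM or more in some sum), those nearest outside the members were Ifi30 (0.928), Rnase6 (0.9003), Plekho1 (0.878), Dnase1l3 (0.849), Ctsh (0.841), Cd86 (0.836), Prcp (0.833) and Gdi2 (0.832). Among the members outside the 3 chains Cd74 (0.992) was nearest, followed by H2-DMa (0.949), H2-DMb1 (0.874), H2-DMb2 (0.791), H2-Oa (0.738) and Ciita (0.683). The sums share 2 libraries and their cell classes, and the values are a description.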

How the data were processed

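Cells of 11 libraries were captured on the 10x Chromium system (3′ v2). The authors deposited whole UMI counts per gene and cell barcode. Per the labels, reads were processed with bcl2fastq 2.19.1.403, UMI-tools 0.5.3, STAR 2.5.3a (mm10) and featureCounts 1.6.1, while the study's methods name later versions. Strand use in counting is not given in the sources used here. The genes and lists were chosen with earlier results of these data known. The rule for named genes was all 9 members, and of a list of 31 pathway genes up to 6 called in microglia and in ECs with the largest change, of which 1 is not reported here. Columns of other samples numbered 0.

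Barcodes were kept as cells if their gene number lay between 500 and 6000 and at most 25% of their UMIs were mitochondrial. In scanpy 1.11.5 (Python 3.11.15), 2000 variable genes without members and pathway genes, 30 principal components, 15 neighbours and Leiden clustering (leidenalg 0.10.2, resolution 1.0) gave 38 clusters, and leukocyte clusters were pooled and clustered again (20 components, resolution 1.5). The resulting clusters were named from marker lists. Clusters with markers of a second class, with leading genes against their name or made mostly of called doublets, were set aside or left unnamed (together 0.711% of juvenile, 1.54% of adult, 3.64% of aged and 5.93% of EAE cells). Scrublet called 818 doublets (1.62%), which helped to set clusters aside but were not removed one by one.

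Counts were summed per library and class with 10 or more cells. Sums were tested in edgeR 4.0.16 (R 4.3.3; TMM, filterByExpr, robust quasi-likelihood test) over 10 units of the 4 conditions, with Adult 2 and 3 joined. Comparisons of classes within EAE had the library as a block, and differences between EAE effects were fitted over the Adult and EAE libraries without one. The Benjamini-Hochberg threshold was 0.05 over all genes tested. The fits were tested on simulated counts with 200 changed genes. For EAE against Adult microglia (10923 genes) they recovered 43% of 2-fold and 79% of 4-fold changes with 8.27% of calls false, for ECs (13312 genes) 60% and 86% with 12.05% false, and for the difference of EAE effects between microglia and ECs (12529 genes) 19% and 61% with 4.76% false. CPM values use the plain total of a class in a library. Intervals of shares are Wilson intervals (95%) and, with the limit of 3 counts for a share of 0, cover counting error only. Replicate numbers are given by the labels, but same-numbered libraries did not deviate together (correlations of −0.165 to 0.191), so they were not taken as pairs. Alternatives were DESeq2 1.42.0, no filter, no joining of Adult 2 and 3, joined juvenile pairs, naming by marker score, Leiden resolution 0.5, the replicate block, and each library left out.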

Additional observations from a re-analysis of the deposited data

Results flagged for a closer look

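The EAE effect differed between microglia and ECs for 4 members by the test of the difference itself in edgeR: Cd74 by 3.19, H2-Aa by 3.98, H2-Ab1 by 3.84 and H2-Eb1 by 4.04 on the log2 scale, larger in microglia. Between PVMs and microglia it differed for Cd74 by −2.17 and for H2-DMa and H2-DMb1 by 1.86 and 1.07 on the log2 scale (PVMs against microglia).

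In 37 groups of 4 juvenile libraries, a library was marked where its gap to the nearest other exceeded Dixon's 95% critical share of the group's range, which chance does in about 1 in 20 groups. H2-Aa in microglia was highest in Juvenile 4 (5.17 CPM) and H2-Eb1 in ECs was highest in Juvenile 2 (12.2 CPM). In astrocytes Juvenile 3 stood above the other 3 libraries for H2-Aa (46.8 CPM), H2-Eb1 (26.0 CPM), Cd74 (130.8 CPM) and H2-DMb2 (4.33 CPM), and Juvenile 2 stood above the others for H2-DMa (16.7 CPM).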

How the results depend on the processing

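Of 432 counts of called members under other settings, 392 stayed within 1.5 times and 40 did not; the cause was not tested. In aged microglia the count of 4 ranged from 2 to 4 with a library left out. In aged ECs the count of 0 became 4 without the filter, 2 with juvenile pairs joined and 4 with naming by marker score (0 to 2 with a library left out, 2 without Juvenile 2). In juvenile ECs the 7 calls ranged from 4 to 7 with a library left out (4 without Adult 1). In aged choroid plexus 1 became 0 in DESeq2 and without leukocyte-positive cells, and 2 without the filter or with the score (0 to 1 with a library left out, 0 without Aged 1 or Aged 2). In aged PVMs 2 became 6 in DESeq2, with Adult 2 and 3 apart, at the other resolution and with the replicate block, and 5 with the score (2 to 6 with a library left out, 4 without Adult 1 and 6 without Aged 2). In juvenile astrocytes 0 became 1 with the score and with the replicate block, and 3 without leukocyte-positive cells (0 to 3 with a library left out, 3 without Juvenile 3). In EAE astrocytes 1 became 2 in DESeq2, with juvenile pairs joined and without leukocyte-positive cells, 6 with the score and 4 with the replicate block (0 to 4 with a library left out, 0 without EAE 1 and 4 without Juvenile 3). Venous against arterial ECs gave 1 in place of 3 at the other resolution and 0 without the large arterial subcluster, where H2-Aa (0.096) and H2-DMb1 (0.022 on the log2 scale) were above 0. The difference of EAE effects between PVMs and microglia gave 6 in place of 3 without the filter and in DESeq2 (0 to 6 with a library left out, 0 without EAE 1 or EAE 2, 5 without Adult 2 and 6 without Adult 1). With cells of 2 or more leukocyte UMIs left out, Cd74 in juvenile against adult astrocytes was at −2.50 on the log2 scale in place of 0.26 (adjusted p = 0.0389 in edgeR), and with naming by marker score H2-DMb2 in macrophages against microglia was at 0.77 in place of −0.20 (adjusted p = 3.017e-07). With the unnamed cells led by Ccl17 and Cd209a counted as DC-like, 7 members were higher in DC-like than in macrophage-like cells in place of lower: H2-Aa 0.55, H2-Ab1 0.30, H2-Eb1 0.52, Cd74 0.26, H2-DMa 0.61, H2-DMb1 0.47 and Ciita 1.65. No other value of a member changed its direction past the threshold. With the replicate block, which was fitted with Adult 2 and 3 apart, there were 9 calls in EAE microglia and 7 in EAE ECs, and counts other than those named stayed within 1.5 times. Depth limits Ciita, mural cells and astrocytes, whose members rest on few UMIs.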

Other observations

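Cells of unnamed groups carried high class II levels, but in EAE the group led by Cst7 and Cxcl9 lay below macrophage-like cells and PVMs. The group led by Ccl17 and Cd209a, genes of dendritic cells, had a summed level of 85973 to 106896 CPM in adult and of 74239 and 77972 CPM in EAE libraries, so that its level was not higher in EAE. Its H2-DMb2 was at 453.9 and 468.2 CPM in EAE. The group led by Cst7 and Cxcl9 (252 cells in EAE) was at 37027 and 36621 CPM. The group led by Cxcl13 and Mgl2 was at 77540, 90548 and 41551 CPM in adult and 97872 and 100535 CPM in aged libraries.

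Natural killer cells and neutrophils, which like T cells are not known as class II producers in mice, held 3.60 and 4.79 and 6.00 and 4.19 class II UMIs per cell in the EAE libraries.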
